A study of Mus musculus with 3 samples.

Results

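Basement membrane genes are described here across the cell classes of the neonatal mouse aortic valve. The set holds 31 genes, taken by name from the 36167 features of the deposited count matrices, and all 31 had unique molecular identifiers (UMIs, each standing for 1 captured RNA molecule) in each of the 3 pools. They encode 6 collagen IV chains, 10 laminin chains, 2 nidogens, the heparan sulfate and multiplexin-type proteins Hspg2, Agrn, Col15a1 and Col18a1, the Fras1 and Frem proteins with nephronectin (Npnt), the linkers Egflam and Tinagl1, hemicentin 1 (Hmcn1), netrin 4 (Ntn4) and the receptor dystroglycan (Dag1). The tissue was flash-frozen aortic valve structure of mouse pups at postnatal day 1, and each pool combined 22 to 24 aortic roots. All pools share the strain label B6.Cg-Scx<tm1.1(EGFP)Skom, which names a green fluorescent protein allele at Scx, a transcription factor gene of tendon. The labels do not say whether pups carried 1 or 2 copies. There is 1 group of samples with no treatment, so the comparisons lie between classes of nuclei of the same pools.

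A basement membrane is a thin sheet of extracellular matrix that underlies endothelial and epithelial cells and wraps each muscle cell and pericyte. Laminin molecules, built from an alpha, a beta and a gamma chain, polymerise at the cell surface on receptors such as integrins and dystroglycan, and a collagen IV network, joined to them by nidogens and the proteoglycan perlecan, gives the sheet its mechanical strength. In the aortic valve such sheets lie under the endothelium of the leaflets, while the interstitial cells within the leaflets are embedded in fibrous and proteoglycan-rich matrix.

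Filters left 13130 nuclei, whose median depth lay between 3341 and 4771 UMIs in the 3 pools. Marker genes divided them into 9 classes with enough nuclei for testing. These were smooth muscle-like (2998 nuclei), endothelial-like (2742), cardiomyocyte-like (2382), valve interstitial-like (1457), fibroblast-like (1204), mesothelial-like (370), macrophage-like (242), pericyte-like (139) and lymphatic endothelial-like (121). None of the 31 genes was used to form the clusters. Levels are given as CPM, the UMIs of a gene per 1000000 UMIs summed over all nuclei of a class in a pool. Means carry the SD over the 3 pools. The p-values rest on the spread left between libraries once pool is taken out, over these 3 pools of animals only. All classes of the fit share the same estimate of that spread for each gene, so the SE of a class does not follow its own pool values alone. Differences are log2 fold changes with their SE from edgeR's quasi-likelihood test with pool as a block, on 27 libraries of 150303 to 8682816 UMIs, and a gene is called where the p adjusted over all 14831 tested genes by the Benjamini-Hochberg method is under 0.05. All 31 genes passed the filter on low counts. The macrophage-like library of pool 3 stood apart from those of the other pools, with 5893 CPM of summed cardiomyocyte markers against 1551 and 3333 CPM, and 2760 CPM of macrophage markers against 4342 and 5302 CPM. Between 44 and 99 barcodes were shared by each pair of pools, at most 1.66% of the smaller pool. Gene lengths were not used here, so levels are compared between classes and not between genes.

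Collagen IV chains are encoded by pairs of genes that lie beside each other and are read in opposite directions from a shared start region. The start regions of the 2 pairs for which both genes have an entry in the RefSeq table of mouse promoters are printed here because the levels of these neighbours are compared below. Each run covers 250 bases before to 50 bases after the annotated start, 5′ to 3′ on the strand of the gene, in the GRCm38.p6 build of that table, which is an older build than that of the count matrices. Capitals mark exact matches, on either strand, of the GC box GGGCGG, the CCAAT box CCAAT and the TATA box TATAAA.
Col4a1, chr8:11312777-11313076, minus strand: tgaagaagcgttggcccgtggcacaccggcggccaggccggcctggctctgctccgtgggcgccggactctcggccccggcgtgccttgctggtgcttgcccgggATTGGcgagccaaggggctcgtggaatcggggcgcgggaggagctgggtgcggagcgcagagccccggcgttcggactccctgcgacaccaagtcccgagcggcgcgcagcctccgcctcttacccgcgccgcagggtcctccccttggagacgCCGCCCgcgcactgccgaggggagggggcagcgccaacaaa
Col4a2, chr8:11312555-11312854, plus strand: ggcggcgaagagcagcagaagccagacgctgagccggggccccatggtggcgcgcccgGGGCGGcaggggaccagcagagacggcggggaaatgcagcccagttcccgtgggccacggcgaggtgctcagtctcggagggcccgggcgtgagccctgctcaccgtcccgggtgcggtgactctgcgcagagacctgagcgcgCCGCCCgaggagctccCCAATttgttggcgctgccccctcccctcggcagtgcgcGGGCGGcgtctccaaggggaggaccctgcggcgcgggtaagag
Col4a5, chrX:141475169-141475468, plus strand: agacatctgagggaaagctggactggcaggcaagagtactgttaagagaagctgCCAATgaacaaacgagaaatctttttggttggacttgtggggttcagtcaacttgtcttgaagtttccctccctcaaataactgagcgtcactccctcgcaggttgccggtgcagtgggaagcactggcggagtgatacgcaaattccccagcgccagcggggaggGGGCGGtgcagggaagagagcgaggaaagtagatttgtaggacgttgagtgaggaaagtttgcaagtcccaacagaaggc
Col4a6, chrX:141474027-141474326, minus strand: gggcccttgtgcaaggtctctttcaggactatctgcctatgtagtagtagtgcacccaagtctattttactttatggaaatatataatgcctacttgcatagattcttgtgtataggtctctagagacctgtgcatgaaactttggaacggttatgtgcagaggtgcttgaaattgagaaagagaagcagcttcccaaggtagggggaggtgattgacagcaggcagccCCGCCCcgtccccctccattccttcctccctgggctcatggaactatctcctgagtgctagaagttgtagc
The Col4a1 and Col4a2 windows share 78 bases, written once on each strand, while 842 bases lie between the windows of Col4a5 and Col4a6. G and C make up 74% and 73.7% of the Col4a1 and Col4a2 windows and 52.7% and 48.3% of the Col4a5 and Col4a6 windows. The Col4a2 window holds 3 GC boxes and each of the others holds 1. Of the 31 members, 23 had entries in the table, with 31 windows in all. A GC box was present in 19 of these 31 windows and in 35.7% of all 32851 windows of the table, a CCAAT box in 13 and in 37.4% of all windows, and the TATA box in 0 and in 13.6% of all windows.

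The summed level of the 31 genes differed between classes. It was 7725 ± 366 CPM in endothelial-like nuclei, 6477 ± 289 CPM in fibroblast-like, 6443 ± 432 CPM in lymphatic endothelial-like and 6324 ± 94.6 CPM in mesothelial-like nuclei. Pericyte-like nuclei had 5099 ± 1015 CPM and cardiomyocyte-like nuclei 4869 ± 59.8 CPM. The valve interstitial-like class, at 3799 ± 52.9 CPM, the smooth muscle-like class, at 3172 ± 174 CPM, and the macrophage-like class, at 2722 ± 1209 CPM, had the lowest sums. In macrophage-like nuclei the sum was 2131 and 1922 CPM in pools 1 and 2 and 4112 CPM in pool 3, the library with the high cardiomyocyte markers, and the part of those markers in it was not tested. A sum is dominated by the genes with most UMIs, above all Hmcn1.

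**Figure D1:**
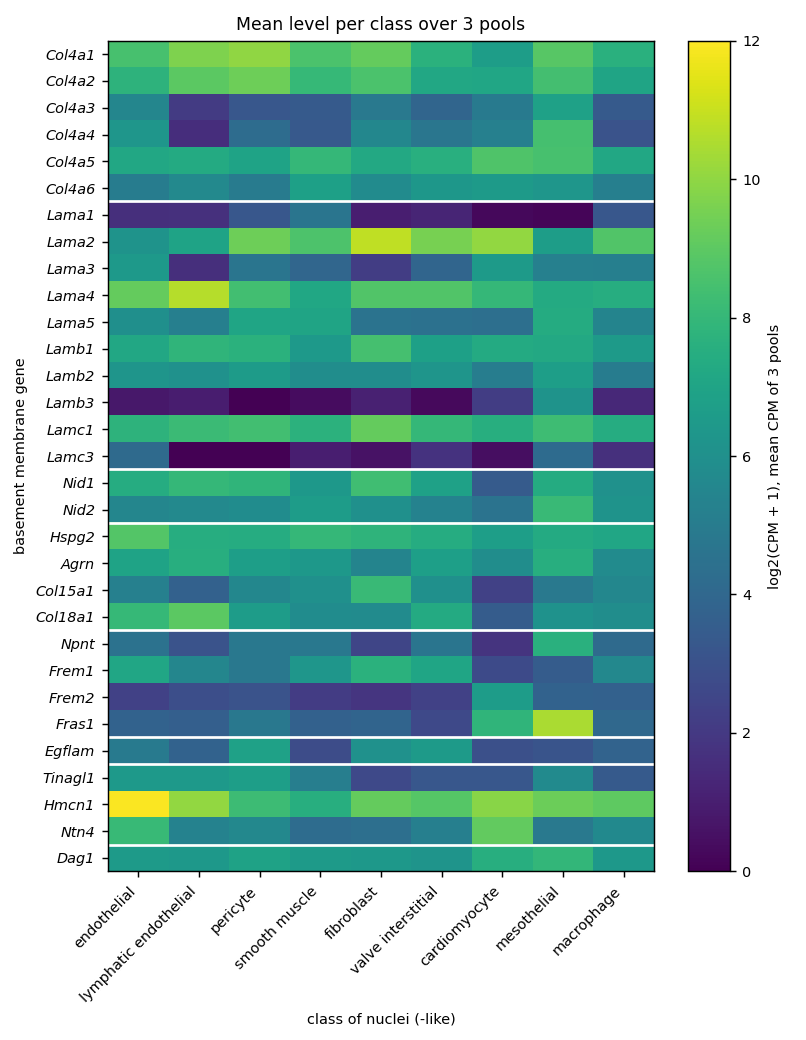
Mean level of each of the 31 genes (rows, in groups by role) in the 9 classes of nuclei (columns), as log2 of CPM + 1 over 3 pools; white lines part the groups. Hmcn1 in endothelial-like nuclei, at 3865 ± 414 CPM, is the brightest cell, and Lamb3 and Lamc3 are near 0 outside a few classes.

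No class led for all members. By mean level, mesothelial-like nuclei were highest for 10 of the 31 genes, fibroblast-like nuclei for 6, cardiomyocyte-like and pericyte-like nuclei for 4 each, lymphatic endothelial-like nuclei for 3, and endothelial-like and smooth muscle-like nuclei for 2 each. Neither valve interstitial-like nor macrophage-like nuclei were highest for any member. For 20 of the 31 genes, the 3 pool values of the highest class lay above every pool value of every other class. Neither this number nor the leading classes were counted over all tested genes, so they do not set the members apart from other genes. None of the 4 genes led by the pericyte-like class (Col4a1, Col4a2, Egflam and Tinagl1) was among these 20. That class is a single cluster of 139 nuclei. A larger cluster of 568 nuclei, led by Hgf, was pericyte-like by the first naming rule and was kept out by a limit set after the clusters were seen; its values stand with the pericyte-like results below.

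The widely made collagen IV chains, Col4a1 and Col4a2, were highest in pericyte-like and lymphatic endothelial-like nuclei and low in valve interstitial-like, macrophage-like and cardiomyocyte-like nuclei. Col4a1 stood at 858, 1569 and 659 CPM in the pericyte-like nuclei of pools 1, 2 and 3 and at 938, 981 and 552 CPM in the lymphatic endothelial-like nuclei. These 2 classes overlapped, and pool 2 was the highest in both. Fibroblast-like nuclei had 571 ± 96.0 CPM, mesothelial-like 475 ± 67.4 CPM, smooth muscle-like 386 ± 53.8 CPM and endothelial-like 366 ± 11.5 CPM. In valve interstitial-like nuclei Col4a1 was at 193, 237 and 185 CPM, and in cardiomyocyte-like nuclei at 106, 99.0 and 94.7 CPM. Macrophage-like nuclei had 209, 169 and 201 CPM, which overlapped with the valve interstitial-like values. Every pool value of these last 3 classes lay below every pool value of the 6 classes named before them. Against the mean of the other classes, Col4a1 was higher in pericyte-like nuclei (log2 fold change 1.51 ± 0.14, edgeR adjusted p = 6.07e-10; 0.76 with the Hgf cluster counted in that class) and lower in valve interstitial-like nuclei (log2 fold change -1.02 ± 0.15, edgeR adjusted p = 2.48e-06) and cardiomyocyte-like nuclei (log2 fold change -1.70 ± 0.16, edgeR adjusted p = 5.85e-11). Col4a2 followed the same order over its first 6 classes, from 662 ± 259 CPM in pericyte-like nuclei to 213 ± 16.0 CPM in endothelial-like nuclei, with 145 ± 15.2 CPM in valve interstitial-like, 135 ± 8.14 CPM in cardiomyocyte-like and 127 ± 41.3 CPM in macrophage-like nuclei, 3 classes that overlapped.

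Col4a3 and Col4a4, whose chains join Col4a5 in the collagen IV of the kidney filter, had another distribution. Col4a4 was at 309.9, 353 and 383 CPM in mesothelial-like nuclei, at 80.2, 75.9 and 76.8 CPM in endothelial-like nuclei and at 45.7, 47.5 and 46.2 CPM in fibroblast-like nuclei. The 3 classes did not overlap. Only 2 UMIs of Col4a4 were found among the 803822 UMIs of lymphatic endothelial-like nuclei, and the level in endothelial-like nuclei was 31.5-fold (95% counting interval 8.69 to 260.1) higher. Col4a3 had the same first and second class, at 117 ± 5.14 CPM and 44.5 ± 6.79 CPM, and also 2 UMIs in the lymphatic class. Both were called higher in mesothelial-like nuclei, Col4a4 at log2 fold change 4.48 ± 0.11, edgeR adjusted p = 2.68e-25, and Col4a3 at log2 fold change 3.32 ± 0.16, edgeR adjusted p = 1.36e-17. In endothelial-like nuclei Col4a4 had log2 fold change 1.80 ± 0.13, edgeR adjusted p = 3.71e-13.

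The X-linked chains Col4a5 and Col4a6 were both high in cardiomyocyte-like and smooth muscle-like nuclei. Col4a5 was at 409.8, 409 and 421 CPM in cardiomyocyte-like, 349, 381 and 351 CPM in mesothelial-like and 243, 255 and 253 CPM in smooth muscle-like nuclei, 3 classes that did not overlap with each other or with those below them. Col4a6, the chain that pairs with Col4a5 around smooth muscle, was at 111, 116 and 114 CPM in smooth muscle-like nuclei, above every pool value of the other classes, and at 91.1 ± 8.07 CPM in cardiomyocyte-like, 81.5 ± 2.70 CPM in valve interstitial-like and 77.2 ± 10.4 CPM in mesothelial-like nuclei, whose values overlapped with both. It was higher in smooth muscle-like nuclei (log2 fold change 1.22 ± 0.13, edgeR adjusted p = 3.09e-09) and lower in endothelial-like nuclei (log2 fold change -0.97 ± 0.15, edgeR adjusted p = 4.45e-06), where it stood at 31.8 ± 6.0 CPM. Over the 9 class means, on the log2(CPM + 1) scale, Pearson's r was 0.955 for Col4a1 with Col4a2, 0.978 for Col4a3 with Col4a4 and 0.792 for Col4a5 with Col4a6. Over the 27 libraries it was 0.938, 0.814 and 0.795. Genes that are not neighbours reached similar values over the class means: r was 0.984 for Fras1 with Dag1, the highest of any pair of members, 0.902 for Lamb3 with Fras1 and 0.865 for Col4a1 with Nid1. These are descriptions over points that share pools and library totals.

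**Figure D2:**
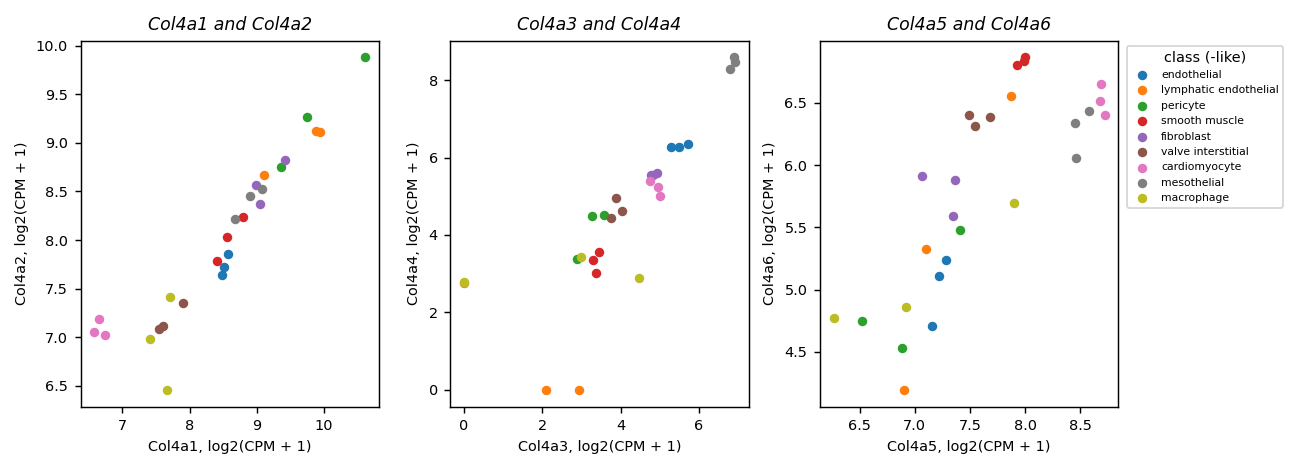
Levels of the neighbouring collagen IV genes in the 27 libraries, 9 classes of nuclei by 3 pools, as log2 of CPM + 1; 1 point is 1 library, coloured by class. The pericyte-like and lymphatic endothelial-like points lie at the top right for Col4a1 and Col4a2, and the mesothelial-like points for Col4a3 and Col4a4.

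Laminin alpha chains, the part of laminin that binds most receptors, had different leading classes. Lama2, the chain of the laminin around muscle fibres, was at 1749, 1694 and 2081 CPM in fibroblast-like nuclei and at 1026, 1091 and 1101 CPM in cardiomyocyte-like nuclei. Valve interstitial-like nuclei came next with 744, 675 and 818 CPM, and endothelial-like nuclei were lowest with 57.2, 73.9 and 80.8 CPM. The fibroblast-like and cardiomyocyte-like values lay apart from each other and from all others, while valve interstitial-like nuclei overlapped with the next classes. Lama2 was called higher in fibroblast-like (log2 fold change 2.55 ± 0.17, edgeR adjusted p = 1.81e-13), cardiomyocyte-like (log2 fold change 2.17 ± 0.17, edgeR adjusted p = 1.89e-12) and valve interstitial-like nuclei (log2 fold change 1.11 ± 0.19, edgeR adjusted p = 2.23e-05), and lower in endothelial-like nuclei (log2 fold change -2.75 ± 0.26, edgeR adjusted p = 2.32e-10).

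Lama4, the alpha chain of vessel laminin, reached 1573, 1564 and 1729.8 CPM in lymphatic endothelial-like nuclei. Endothelial-like nuclei followed at 547, 578 and 607 CPM, and both classes lay apart from all others. Fibroblast-like and valve interstitial-like nuclei had 427 ± 23.2 CPM and 424 ± 42.5 CPM, which overlapped, and smooth muscle-like nuclei were lowest at 139.9 ± 19.3 CPM. The gene was higher in the lymphatic class (log2 fold change 2.40 ± 0.12, edgeR adjusted p = 9.36e-17) and lower in smooth muscle-like nuclei (log2 fold change -1.36 ± 0.14, edgeR adjusted p = 3.62e-09). Lama5, a chain of many adult vessels and epithelia, was at 165 ± 19.1 CPM in mesothelial-like, 130.1 ± 29.3 CPM in pericyte-like and 128 ± 28.2 CPM in smooth muscle-like nuclei. The pericyte-like values overlapped with those of both other classes, while the mesothelial-like values lay above the smooth muscle-like ones. These 3 classes lay above the other 6, with valve interstitial-like nuclei at 21.1 ± 2.86 CPM (log2 fold change -1.54 ± 0.17, edgeR adjusted p = 6.43e-09).

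Lama3 and Lama1 were high in fewer classes. Lama3, a chain of the laminin that anchors epithelia, was at 86.0, 94.6 and 95.3 CPM in cardiomyocyte-like and 85.6, 76.6 and 108 CPM in endothelial-like nuclei. The 2 classes overlapped and every pool value of the other classes was lower. In lymphatic endothelial-like nuclei 2 UMIs of Lama3 were counted, and the endothelial-like level was 35.0-fold (95% counting interval 9.66 to 289) higher. Lama1, the alpha chain of early embryonic laminin, was at 27.6, 28.9 and 17.4 CPM in smooth muscle-like nuclei. Its UMIs there numbered 240, 59 and 47 in pools 1, 2 and 3. Cardiomyocyte-like nuclei held 3 UMIs of Lama1 in 13904838, and the smooth muscle-like level was 119-fold (95% counting interval 40.5 to 582) higher, with the gene called higher in smooth muscle-like nuclei (edgeR adjusted p = 1.28e-13). In macrophage-like nuclei Lama1 was also called higher (edgeR adjusted p = 0.00162), on 15, 0 and 2 UMIs in the 3 pools, so pool 1 decided it. Without pool 1 its log2 fold change there was 0.94, with an edgeR adjusted p of 0.649. Summed smooth muscle markers in the macrophage-like libraries of pools 1, 2 and 3 stood at 1460, 780 and 1288 CPM, and their part was not tested.

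Among the beta and gamma chains, Lamb1 and Lamc1, which are parts of most laminins, were highest in fibroblast-like nuclei. Lamb1 was at 340.4, 417 and 293 CPM there, at 229 ± 48.8 CPM in lymphatic endothelial-like nuclei and at 114 ± 25.5 CPM in valve interstitial-like nuclei. Lamc1 was at 490.4, 638 and 601 CPM in fibroblast-like nuclei and between 173 and 325 CPM by mean in the other 8 classes. For both genes the fibroblast-like pool values lay above all others, and the log2 fold changes were 1.24 ± 0.11 (edgeR adjusted p = 1.32e-10) and 1.20 ± 0.10 (edgeR adjusted p = 2.94e-11). Over the 9 class means their r was 0.816. Lamb2, the beta chain of synaptic and kidney laminin, varied less, from 106 ± 17.1 CPM in mesothelial-like nuclei to 32.4 ± 10.1 CPM in macrophage-like nuclei, with the 3 pools of neighbouring classes overlapping along the order.

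Lamb3 and Lamc3 were close to 0 in most classes. Lamb3, the beta chain of epithelial anchoring laminin, was at 69.4, 72.2 and 71.0 CPM in mesothelial-like nuclei, on 181, 75 and 40 UMIs. No UMI of it was found in pericyte-like nuclei, so the mesothelial-like level was at least 17.1-fold higher, with the floor set at 3 UMIs over the class, and it was 200.1-fold (95% counting interval 54.9 to 1660.0) higher than in valve interstitial-like nuclei, which held 2 UMIs. Lamc3, a gamma chain found in a few tissues, was at 17.6, 26.0 and 8.87 CPM in mesothelial-like and 21.4, 11.7 and 17.1 CPM in endothelial-like nuclei, which overlapped. Lymphatic endothelial-like and pericyte-like nuclei held 0 UMIs of Lamc3, and the endothelial-like level was at least 4.73-fold higher than the first and at least 4.30-fold higher than the second. These floors and intervals cover counting error only.

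The nidogens, which join laminin to collagen IV, differed from each other. Nid1 was at 285, 363 and 293 CPM in fibroblast-like nuclei, with 251 ± 58.6 CPM in lymphatic endothelial-like and 229 ± 55.5 CPM in pericyte-like nuclei, 3 classes that overlapped. Cardiomyocyte-like nuclei had 12.4, 9.05 and 8.33 CPM, below every other library (log2 fold change -3.53 ± 0.17, edgeR adjusted p = 1.19e-17). Nid2 was at 367, 285 and 195 CPM in mesothelial-like nuclei, all above the 98.0 ± 21.2 CPM of smooth muscle-like nuclei, the next class (log2 fold change 2.68 ± 0.11, edgeR adjusted p = 3.35e-19). In valve interstitial-like nuclei Nid1 was at 117 ± 10.2 CPM and not called (edgeR adjusted p = 0.932), and Nid2 was at 39.6 ± 6.96 CPM and lower (log2 fold change -0.78 ± 0.15, edgeR adjusted p = 0.000148).

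The heparan sulfate proteoglycans and multiplexins had different leading classes. Perlecan (Hspg2), which binds growth factors and bridges the laminin and collagen IV networks, was at 483, 463 and 362 CPM in endothelial-like nuclei and at 254 ± 51.9 CPM in smooth muscle-like nuclei. The endothelial-like values lay above all others (log2 fold change 1.30 ± 0.10, edgeR adjusted p = 1.45e-12). Agrin (Agrn), which clusters receptors at the nerve and muscle contact, was at 183 ± 38.7 CPM in lymphatic endothelial-like, 180.2 ± 30.1 CPM in mesothelial-like and 123 ± 27.6 CPM in endothelial-like nuclei, and lowest in fibroblast-like nuclei at 54.2, 43.1 and 28.9 CPM (log2 fold change -1.34 ± 0.11, edgeR adjusted p = 4.41e-11).

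Collagen XV (Col15a1) was a fibroblast-like gene by level, at 236, 343 and 267 CPM against 64.8 ± 10.7 CPM in valve interstitial-like and 64.0 ± 7.51 CPM in smooth muscle-like nuclei. No pool value of another class reached the fibroblast-like range (log2 fold change 3.19 ± 0.13, edgeR adjusted p = 2.76e-18). Its relative collagen XVIII (Col18a1), the source of the fragment endostatin, was at 625, 563 and 333 CPM in lymphatic endothelial-like nuclei, at 279.6, 301 and 218 CPM in endothelial-like nuclei and at 155, 203 and 131 CPM in valve interstitial-like nuclei. These 3 classes followed each other without overlap, and pool 3 was the lowest in each. Col18a1 was higher in all 3, with log2 fold changes of 2.75 ± 0.13 (edgeR adjusted p = 4.77e-17), 1.76 ± 0.10 (edgeR adjusted p = 2.31e-15) and 0.97 ± 0.12 (edgeR adjusted p = 5.39e-08), and lower in cardiomyocyte-like nuclei (log2 fold change -3.03 ± 0.16, edgeR adjusted p = 1.87e-16).

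Fras1, Frem1 and Frem2 encode related proteins that form a complex below embryonic epithelia, and Npnt encodes an integrin ligand that the complex is known to hold. Fras1 was at 1329.6, 1351 and 1553 CPM in mesothelial-like nuclei and at 246, 215 and 224 CPM in cardiomyocyte-like nuclei. All other libraries were at 51.9 CPM or less, and valve interstitial-like nuclei had 5.36 ± 1.29 CPM. Fras1 was higher in mesothelial-like (log2 fold change 6.46 ± 0.12, edgeR adjusted p = 2.33e-28) and cardiomyocyte-like nuclei (log2 fold change 3.74 ± 0.13, edgeR adjusted p = 5.33e-21). Frem2 was at 95.8, 90.0 and 106 CPM in cardiomyocyte-like nuclei, above every pool value of the other classes, with 12.5 ± 4.67 CPM in mesothelial-like nuclei (log2 fold change 4.43 ± 0.17, edgeR adjusted p = 1.68e-20 in the first).

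Frem1 had nearly the opposite distribution. It was at 194, 188 and 219.8 CPM in fibroblast-like, 112, 152 and 144 CPM in endothelial-like and 123, 118 and 153 CPM in valve interstitial-like nuclei, and at 10.3 ± 9.57 CPM in mesothelial-like and 5.39 ± 1.85 CPM in cardiomyocyte-like nuclei. Frem1 was higher in the first 3 classes, in valve interstitial-like nuclei with log2 fold change 1.71 ± 0.15, edgeR adjusted p = 9.4e-11, and lower in cardiomyocyte-like nuclei (log2 fold change -2.96 ± 0.23, edgeR adjusted p = 1.57e-12). Over the 9 class means r was -0.826 for Fras1 with Frem1, -0.874 for Frem1 with Frem2 and 0.640 for Fras1 with Frem2. Npnt was at 193, 242 and 154 CPM in mesothelial-like nuclei, where every other class was below 39 CPM in every pool (log2 fold change 4.18 ± 0.14, edgeR adjusted p = 8.03e-22).

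Hmcn1, Ntn4, Egflam and Tinagl1 each marked a different set of classes. Hmcn1, a very large protein that links basement membranes of neighbouring tissues, was at 3400.0, 4003 and 4193 CPM in endothelial-like nuclei and at 782, 1152 and 1238 CPM in lymphatic endothelial-like nuclei. The endothelial-like values lay above all others (log2 fold change 2.91 ± 0.19, edgeR adjusted p = 3.87e-14). Smooth muscle-like nuclei were lowest, at 126, 101 and 323 CPM, with pool 3 the highest of them (log2 fold change -2.06 ± 0.28, edgeR adjusted p = 5.85e-07). Netrin 4 (Ntn4), which binds the laminin gamma 1 chain and can break up the laminin network, was at 557, 533 and 598 CPM in cardiomyocyte-like and 254, 251 and 296 CPM in endothelial-like nuclei, each apart from all other classes (log2 fold change 4.21 ± 0.14, edgeR adjusted p = 4.64e-22, and log2 fold change 2.52 ± 0.15, edgeR adjusted p = 7.2e-15).

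Egflam encodes pikachurin, a dystroglycan ligand best known from the retina. It was at 82.3, 164 and 98.1 CPM in pericyte-like nuclei on 26, 38 and 18 UMIs, at 104, 83.4 and 90.1 CPM in valve interstitial-like nuclei and at 77.5, 49.3 and 72.7 CPM in fibroblast-like nuclei. The first 2 classes overlapped, both lay above the third, and smooth muscle-like nuclei were lowest at 6.0 ± 1.56 CPM. In valve interstitial-like nuclei Egflam had the most positive log2 fold change of the 31 genes against the mean of the other classes (log2 fold change 2.34 ± 0.16, edgeR adjusted p = 3.48e-13), and it was also higher in pericyte-like nuclei (log2 fold change 2.61 ± 0.28, edgeR adjusted p = 1.61e-08; 1.17 with the Hgf cluster counted in that class). Tinagl1, a secreted matrix protein related to a kidney basement membrane antigen, was at 103 ± 34.1 CPM in pericyte-like, 90.2 ± 32.1 CPM in lymphatic endothelial-like and 85.0 ± 11.3 CPM in endothelial-like nuclei, which overlapped. Fibroblast-like nuclei had 5.33 ± 3.27 CPM (log2 fold change -2.57 ± 0.28, edgeR adjusted p = 6.98e-09) and valve interstitial-like nuclei 8.62 ± 5.12 CPM (log2 fold change -1.84 ± 0.24, edgeR adjusted p = 3.54e-07).

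Dystroglycan (Dag1), the receptor that ties laminin, perlecan, agrin and pikachurin to the cytoskeleton, was detected in every library. It was at 250.4, 278 and 213 CPM in mesothelial-like and 202, 185 and 168 CPM in cardiomyocyte-like nuclei, 2 classes apart from each other and from the rest, and at 73.6 ± 10.6 CPM in valve interstitial-like nuclei, the lowest mean. The gene was higher in mesothelial-like (log2 fold change 1.53 ± 0.11, edgeR adjusted p = 1.19e-13) and cardiomyocyte-like nuclei (log2 fold change 1.28 ± 0.10, edgeR adjusted p = 8.68e-13) and lower in valve interstitial-like nuclei (log2 fold change -0.69 ± 0.13, edgeR adjusted p = 6.15e-05).

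**Figure D3:**
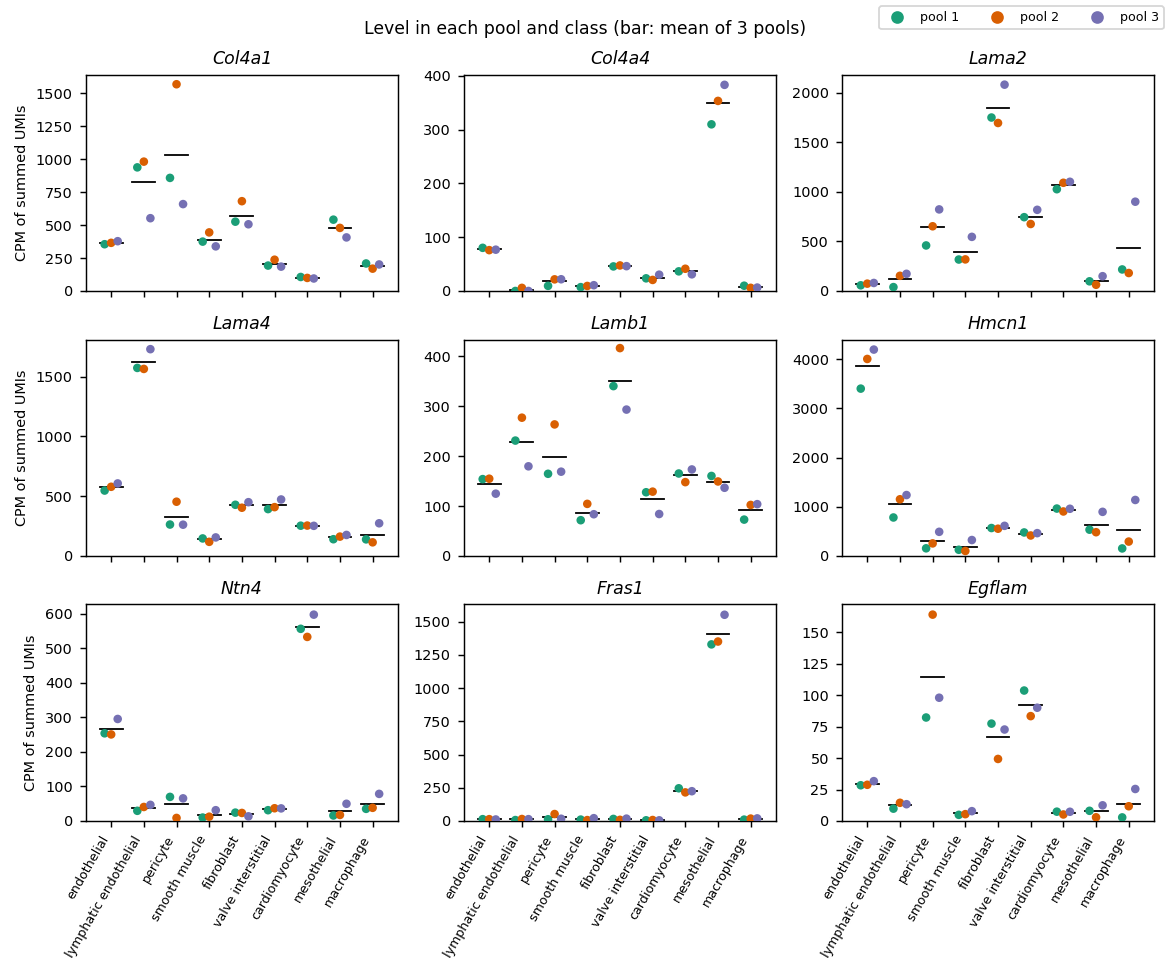
Levels of 9 members in CPM (linear axes from 0) by class of nuclei, with 1 point per pool and a bar at the mean of 3 pools. Hmcn1 is highest in endothelial-like, Fras1 and Col4a4 in mesothelial-like, Lama2 and Lamb1 in fibroblast-like, Lama4 in lymphatic endothelial-like and Ntn4 in cardiomyocyte-like nuclei, while the pericyte-like points of Col4a1 and Egflam spread widely.

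Valve interstitial-like nuclei, the cells of the leaflet core, had higher Egflam, Frem1, Lama2, Col18a1, Col15a1 and Col4a6 than the mean of the other classes. Lower were Fras1, Tinagl1, Lama5, Frem2, Col4a2, Col4a1, Nid2, Ntn4, Dag1 and Lamb1. In all, 6 of the 31 members were called higher and 10 lower, where 17.8% of the 14831 tested genes were called higher and 14.9% lower (32.6% in either direction). On the log2 scale, the members' median log2 fold change was -0.23 and that of all tested genes -0.01. With library totals in place of TMM scaling the split was 9 higher and 9 lower. With only the classes of at least 50 nuclei in each pool in the fit, 25 members were called in place of 16; that fit also averages over fewer classes. With a pool left out, the adjusted p passed 0.05 for some members. Their log2 fold changes then are given in brackets here and below, except for Lama1 and Lamc3 where a compared class held 3 UMIs or fewer: calls were lost without pool 1 for Frem2 (-1.19), Ntn4 (-0.72) and Col4a6 (0.54), without pool 2 for Frem2 (-1.24), without pool 3 for Frem2 (-0.68) and without the macrophage-like library of pool 3 for Frem2 (-0.89). For the other classes, the weakest value under another setting, the Hgf cluster apart, is given where it ended a call that the pools kept or was over 1.5 times smaller than the value of the fit on all libraries.

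Endothelial-like nuclei, which hold the valve and vessel lining, had more members higher than lower. Lamc3, Hmcn1, Ntn4, Lama3, Tinagl1, Col4a4, Frem1, Col18a1, Col4a3, Hspg2, Lama4, Nid1, Egflam, Agrn and Lamb2 were higher, and Lama2, Fras1, Frem2, Col4a6, Nid2, Col4a5, Col4a2, Lamc1 and Dag1 lower. Thus 15 of the 31 members were called higher and 9 lower, against 21.3% and 15.5% (36.8% in either direction) of all tested genes, and the members' median log2 fold change was 0.29 and that of all tested genes 0.02. Calls in this class were lost without pool 1 for Frem2 (-1.02), Col4a2 (-0.31), Dag1 (-0.33), Lamb2 (0.31) and Egflam (0.40) and without pool 2 for Col4a2 (-0.30) and Egflam (0.46). Under other settings they were lost with no pool block for Agrn (0.37, edgeR adjusted p = 0.07), with only classes of at least 50 nuclei in each pool for Col4a2 (-0.09, edgeR adjusted p = 0.573) and with nuclei from 500 UMIs for Lamb2 (0.19, edgeR adjusted p = 0.0969). For Col4a2 pools 1 and 2 were lower and pool 3 was not.

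Lymphatic endothelial cells line the lymph vessels. In the nuclei like them 9 of the 31 members were called higher and 8 lower, and the shares over all tested genes were 12.1% and 10.3% (22.4% in either direction). Col18a1, Lama4, Tinagl1, Col4a1, Nid1, Agrn, Col4a2, Hmcn1 and Lamb1 were higher, and Col4a4, Lama3, Col4a3, Lama2, Col15a1, Fras1, Col4a5 and Dag1 lower. Here the members' median log2 fold change was -0.53 and that of all tested genes -0.12. Summed cardiomyocyte markers, with 8 of 8 detected, stood at 1045, 1922 and 2089 CPM in the lymphatic endothelial-like libraries of pools 1, 2 and 3, where Hmcn1, also high in cardiomyocyte-like nuclei, was at 782, 1152 and 1238 CPM. Both were lowest in pool 1 and highest in pool 3, and the part of these markers was not tested. For this small class calls were lost without pool 1 for Hmcn1 (0.77), Col15a1 (-1.38), Fras1 (-1.44), Lamb1 (0.49) and Col4a5 (-0.49), without pool 2 for Hmcn1 (0.53), Dag1 (-0.19), Lamb1 (0.50) and Col4a5 (-0.39) and without pool 3 for Dag1 (-0.43), and with doublets kept for Col4a3 (edgeR adjusted p = 0.123) and Lama3 (edgeR adjusted p = 0.0976), of which 2 UMIs each were counted in the class.

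The direct comparison of the 2 endothelial classes gave higher levels of Lamc3, Lama3, Col4a4, Col4a3, Ntn4, Hmcn1, Frem1, Col15a1, Hspg2 and Lama5 in endothelial-like nuclei and of Lama4, Col4a2, Col4a1, Col18a1, Lamb1 and Agrn in the lymphatic class. Ntn4 had log2 fold change 2.86 ± 0.36, edgeR adjusted p = 4.55e-07, Hmcn1 log2 fold change 1.96 ± 0.33, edgeR adjusted p = 4.54e-05 and Hspg2 log2 fold change 1.33 ± 0.18, edgeR adjusted p = 1.01e-06. In the other direction Lama4 had log2 fold change -1.41 ± 0.17, edgeR adjusted p = 1.9e-07, Col4a2 log2 fold change -1.17 ± 0.18, edgeR adjusted p = 1.35e-05 and Col4a1 log2 fold change -1.09 ± 0.19, edgeR adjusted p = 6.89e-05. With the endothelial-like class as the numerator, 10 of the 31 members were called higher and 6 lower, against 8.49% and 6.45% (14.9% in either direction) of all tested genes, and the members' median log2 fold change was 0.15 and that of all tested genes 0.11. The split was 8 and 8 under RLE scaling and with library totals only. In this comparison calls were lost without pool 1 for Lamc3, Lama5 (0.96), Col15a1 (1.15), Agrn (-0.46) and Lamb1 (-0.67), without pool 2 for Lama5 (0.72), Agrn (-0.60) and Lamb1 (-0.55) and without pool 3 for Col15a1 (1.18), and with no mitochondrial limit for Col15a1 (0.92, edgeR adjusted p = 0.206).

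Smooth muscle cells belong to the aortic wall. Of the 2998 smooth muscle-like nuclei, 1113 lay in the Clca3a2 cluster, which carried 4 of 7 smooth muscle and 4 of 8 pericyte markers. The part of that cluster in the results was not tested. The smooth muscle-like class had higher Lama1, Lama5, Col4a6, Frem1, Col15a1, Npnt, Nid2, Hspg2, Col4a5 and Tinagl1. Lower were Egflam, Hmcn1, Ntn4, Col4a4, Fras1, Lama4, Frem2, Lamb1, Col4a3, Col18a1, Nid1 and Lamc1. Here 10 of the 31 members were called higher and 12 lower, with 22% and 16.9% (38.9% in either direction) over all tested genes. At the same time the members' median log2 fold change was -0.12 and that of all tested genes 0.01. Among these, calls were lost without pool 1 for Col4a3 (-0.90), Lamc1 (-0.30), Frem2 (-1.38) and Col4a5 (0.44), without pool 2 for Col4a4 (-1.04), Tinagl1 (0.27) and Col4a5 (0.31) and without pool 3 for Col4a3 (-0.75) and Tinagl1 (0.25). Other settings ended calls with nuclei from 500 UMIs for Col4a3 (-0.25, edgeR adjusted p = 0.431) and with only classes of at least 50 nuclei in each pool for Col18a1 (-0.23, edgeR adjusted p = 0.0849), Nid1 (-0.18, edgeR adjusted p = 0.165) and Col4a5 (0.28, edgeR adjusted p = 0.066). Tinagl1 changed sign, to -0.08 (edgeR adjusted p = 0.756), when the members and the other gene lists were kept in the clustering.

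Pericyte-like nuclei, cells that sit in the basement membrane of small vessels, were few, 42 to 55 per pool, all in 1 cluster. Egflam, Tinagl1, Col4a1, Lama5, Col4a2, Nid1 and Lama2 were higher and Hmcn1, Col4a6 and Col4a5 lower. So 7 of the 31 members were called higher and 3 lower, where 7.72% and 3.72% (11.4% in either direction) of all tested genes were, and the members' median log2 fold change was 0.06 and that of all tested genes -0.09. Summed smooth muscle markers stood at 2947 to 3677 CPM in the pericyte-like libraries and at 2761 to 3764 CPM in the smooth muscle-like libraries. That sum was also 3068 to 3315 CPM in the cardiomyocyte-like libraries, so it does not part these classes. Summed pericyte markers stood at 3345 to 5147 CPM in the pericyte-like and 936 to 1237 CPM in the smooth muscle-like libraries. The part of these markers in the results was not tested. Summed cardiomyocyte markers, with 8 of 8 detected, stood at 1209.5, 1966 and 3127 CPM in the pericyte-like libraries of pools 1, 2 and 3, where Lama2, also high in cardiomyocyte-like nuclei, was at 459, 653 and 823 CPM. Both were lowest in pool 1 and highest in pool 3, and the part of the cardiomyocyte markers was not tested. With fewer libraries calls were lost without pool 1 for Lama2 (0.83), Col4a6 (-0.96) and Col4a5 (-0.88) and without pool 2 for Lama2 (0.66). Other settings gave weaker values without a call without the lymphatic class for Lama2 (0.50, edgeR adjusted p = 0.147) and with nuclei from 500 UMIs for Col4a6 (-0.31, edgeR adjusted p = 0.675) and Col4a5 (-0.44, edgeR adjusted p = 0.1).

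The Hgf cluster, with 291, 78 and 199 nuclei in pools 1, 2 and 3, carried 3 of 8 pericyte markers (Rgs5, Notch3 and Pdgfrb). Its levels are set beside those of the pericyte-like class as a description, without a test. Egflam was at 5.89 ± 3.37 CPM in it against 115 ± 43.5 CPM in the class, Tinagl1 at 23.4 ± 5.94 against 103 ± 34.1 CPM, and Col4a1 at 322 ± 35.4 against 1029 ± 478 CPM. Nid1 was at 84.7 ± 2.07 against 229 ± 55.5 CPM, while Col4a6 was at 154 ± 41.0 against 30.6 ± 11.4 CPM and Col4a5 at 339.6 ± 51.2 against 126 ± 39.8 CPM. A fit with this cluster counted as pericyte-like (707 nuclei) was added after the data were seen. In it 11 of the 31 members were called higher and 5 lower, where 13.7% and 9.28% of 14667 tested genes were. Egflam, Lama5, Tinagl1, Lama2, Col4a1 and Col4a2 were higher in both fits, and Hmcn1 lower. Their log2 fold changes with the cluster were 1.17, 1.10, 1.03, 1.015, 0.76 and 0.59, and -1.31 for Hmcn1. Nid1 was no longer called (0.27, edgeR adjusted p = 0.19), Col4a5 turned positive without a call (0.30, edgeR adjusted p = 0.116), and Col4a6 turned from lower to higher (0.82 ± 0.17, edgeR adjusted p = 0.000351). Called with the cluster and not without it were Lama1, Col4a3, Col4a4 and Col15a1, higher, and Col18a1, Fras1, Lama4 and Ntn4, lower. The same change ended 6 calls of other classes against their means: Col4a6 in valve interstitial-like (0.33), Col4a2 in endothelial-like (-0.32), Col4a5 in smooth muscle-like (0.30), Col4a3 in fibroblast-like (0.45), Egflam in macrophage-like (-0.96) and Dag1 in lymphatic endothelial-like nuclei (-0.49).

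Against pericyte-like nuclei, smooth muscle-like nuclei had higher Col4a6, Frem1, Col4a5, Nid2 and Hspg2 and lower Egflam, Tinagl1, Ntn4, Nid1, Col4a1, Col4a2, Lama4 and Lamb1. The smooth muscle-like class holds the Clca3a2 cluster, which carried 4 of 8 pericyte markers. Col4a6 had log2 fold change 2.11 ± 0.33, edgeR adjusted p = 2.17e-05, Egflam log2 fold change -4.19 ± 0.34, edgeR adjusted p = 1.66e-10 and Col4a1 log2 fold change -1.24 ± 0.19, edgeR adjusted p = 1.95e-05. With the smooth muscle-like class as the numerator, 5 of the 31 members were called higher and 8 lower, against 4.79% and 4.63% (9.41% in either direction) of all tested genes, and the members' median log2 fold change was -0.57 and that of all tested genes 0.11. Here too calls were lost without pool 1 for Hspg2 (0.63) and Ntn4 (-0.49), without pool 2 for Nid2 (0.90) and without pool 3 for Nid2 (1.00). With the Hgf cluster counted as pericyte-like, none was called higher and 4 were called lower in smooth muscle-like nuclei, where 2.2% and 2.99% of tested genes were. These 4 were Egflam (-2.74), Col4a4 (-2.23), Col4a3 (-1.85) and Nid1 (-0.60); Col4a1 stood at -0.49 (edgeR adjusted p = 0.137) and Col4a6 at 0.13 (edgeR adjusted p = 0.858).

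Cardiomyocyte-like nuclei showed the most calls, as they did over all genes. Frem2, Ntn4, Fras1, Lama3, Lama2, Lamb3, Col4a5, Dag1, Col4a3, Col4a6, Hmcn1, Col4a4 and Lamb1 were higher. Lower were Nid1, Col15a1, Lama1, Col18a1, Frem1, Npnt, Col4a1, Egflam, Tinagl1, Nid2, Lama5, Col4a2, Lamb2, Hspg2 and Agrn. In this class 13 of the 31 members were called higher and 15 lower, against 33.7% and 32.1% (65.8% in either direction) of all tested genes, and the members' median log2 fold change was -0.36 and that of all tested genes -0.04. With library totals in place of TMM scaling the median of all genes moved by -0.40, and Lamb1 was no longer called (log2 fold change 0.09, edgeR adjusted p = 0.475). Further calls were lost without pool 1 for Lama1 and without pool 3 for Lama1, and with no pool block for Agrn (-0.37, edgeR adjusted p = 0.055).

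Fibroblast-like nuclei had higher Col15a1, Lama2, Frem1, Egflam, Nid1, Lamb1, Lamc1, Col4a4, Col4a3, Col4a1 and Col4a2. Lower were Lama3, Tinagl1, Npnt, Frem2, Ntn4, Lama5, Agrn, Fras1, Col18a1, Dag1 and Col4a5. That is, 11 of the 31 members were called higher and 11 lower, with 19.5% and 11.5% (31% in either direction) over all tested genes, and the members' median log2 fold change was -0.14 and that of all tested genes 0.03. Calls of fibroblast-like nuclei were lost without pool 1 for Col4a3 (0.74), Frem2 (-1.52), Dag1 (-0.45) and Col4a5 (-0.57) and without pool 2 for Col4a3 (0.47). They were also lost with only classes of at least 50 nuclei in each pool for Col4a4 (0.32, edgeR adjusted p = 0.0577) and Col4a3 (0.07, edgeR adjusted p = 0.808). With the members and the other gene lists kept in the clustering, the call of Col4a5 was lost (-0.32, edgeR adjusted p = 0.0778). Without the lymphatic class Col4a3 was at 0.32 (edgeR adjusted p = 0.212).

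The valve interstitial-like and fibroblast-like classes, both mesenchymal, were compared directly. Lower in valve interstitial-like nuclei were Col15a1, Lamb1, Col4a1, Nid1, Col4a2, Fras1, Lama2, Lamc1, Col4a3, Col4a4, Nid2 and Frem1, and higher were Npnt, Lama3, Col18a1, Agrn and Col4a6. Col15a1 had log2 fold change -2.09 ± 0.19, edgeR adjusted p = 4.31e-10, Lamb1 log2 fold change -1.60 ± 0.16, edgeR adjusted p = 6.53e-09, Col4a1 log2 fold change -1.47 ± 0.19, edgeR adjusted p = 3.71e-07 and Nid1 log2 fold change -1.40 ± 0.16, edgeR adjusted p = 5.37e-08. Npnt had log2 fold change 2.38 ± 0.36, edgeR adjusted p = 8.2e-06, Col18a1 log2 fold change 1.57 ± 0.17, edgeR adjusted p = 1.89e-08 and Agrn log2 fold change 1.37 ± 0.14, edgeR adjusted p = 3.86e-09. Npnt stood at 19.5, 24.9 and 28.8 CPM against 4.62 ± 1.57 CPM in fibroblast-like nuclei, and Agrn at 123, 118 and 85.5 CPM against 42.1 ± 12.7 CPM. Neither gene's pool values overlapped between the 2 classes. Over the set 5 of the 31 members were called higher and 12 lower, against 7.79% and 10.2% (18% in either direction) of all tested genes, and the members' median log2 fold change was -0.18 and that of all tested genes -0.02. Between these classes calls were lost without pool 1 for Col4a3 (-1.07), Frem1 (-0.56), Fras1 (-1.02) and Col4a6 (0.49), without pool 2 for Nid2 (-0.60) and without pool 3 for Fras1 (-1.10).

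**Figure D4:**
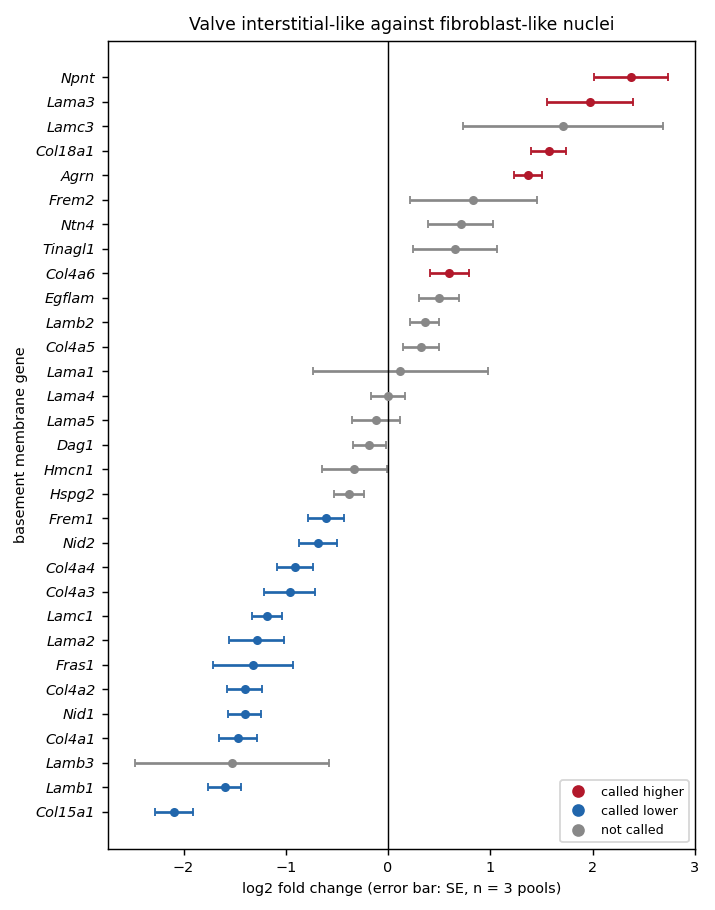
Log2 fold change of the 31 genes in valve interstitial-like against fibroblast-like nuclei (x axis), with bars of 1 SE from 3 pools; colours give the call of edgeR's test. Col15a1 lies lowest at -2.09 and Npnt highest at 2.38, with 5 genes called higher and 12 lower.

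Mesothelial-like nuclei, which cover the outer surface of the heart and great vessels, had the largest share of members higher. They were Lamb3, Fras1, Lamc3, Col4a4, Npnt, Col4a3, Nid2, Lama5, Dag1, Tinagl1, Agrn, Col4a5, Lama3, Frem2, Lamb2, Nid1, Col4a6, Col4a1, Col4a2 and Lamc1, and the lower ones were Lama1, Frem1, Lama2, Egflam, Ntn4 and Lama4. In numbers 20 of the 31 members were called higher and 6 lower, against 32.1% and 24.2% (56.4% in either direction) of all tested genes, and the members' median log2 fold change was 0.80 and that of all tested genes 0.00. The median UMI count of these nuclei, 9917, was the highest of the 9 classes. Its effect was not tested, while shares below are given at equal depth. Calls of mesothelial-like nuclei were lost without pool 1 for Lamc1 (0.35), Frem2 (0.86), Col4a1 (0.40) and Lama1 and without pool 3 for Lama1, and with doublets kept for Lama1 (edgeR adjusted p = 0.0967).

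Macrophage-like nuclei, which are immune cells and not a lining or muscle, had few members higher. In them 1 of the 31 members was called higher and 17 were called lower, with 14.4% and 10.1% (24.5% in either direction) over all tested genes, and the members' median log2 fold change was -0.69 and that of all tested genes -0.03. Without Lamb3 and Lamc3, which had no UMI in 1 or more classes, the members' median was -0.83. Higher was Lama1, and lower were Col4a4, Tinagl1, Col4a2, Fras1, Lamb2, Lama4, Col4a1, Egflam, Agrn, Lamb1, Nid1, Col4a6, Lamc1, Col18a1, Col4a5, Hspg2 and Dag1. Without the macrophage-like library of pool 3, 1 was called higher and 20 lower. Hmcn1 was at 153, 292 and 1138 CPM and Lama2 at 217, 181 and 900.3 CPM in the 3 pools. Calls of macrophage-like nuclei were lost without pool 1 for Fras1 (-1.12), Dag1 (-0.43), Col18a1 (-0.72), Egflam (-0.47), Lama1 (0.94), Col4a6 (-0.78) and Col4a5 (-0.58) and without pool 2 for Col4a4 (-1.16), Dag1 (-0.47), Egflam (-1.12) and Col4a5 (-0.46). They were weaker and lost with nuclei from 500 UMIs for Fras1 (-0.09, edgeR adjusted p = 0.906) and Lama1 (1.24, edgeR adjusted p = 0.257) and with only classes of at least 50 nuclei in each pool for Col18a1 (-0.45, edgeR adjusted p = 0.0679). With doublets kept Fras1 was at -0.36 (edgeR adjusted p = 0.269).

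Across the 12 comparisons, 229 member values were called of 372 tested. Of all tested genes, the share called in either direction ran from 9.41% between muscle and pericyte classes to 65.8% in cardiomyocyte-like nuclei. In 220 of the 229 calls the 3 pools went the same way as the fit. That agreement was not counted over all genes, and the calls were made on the same pools. The endothelial-like class held 7 clusters, and the members differed between them. These clusters come from the same nuclei, so the values are a description without a test, named by the first leading gene of each cluster. The Pcdh17 cluster (244 nuclei), whose leading genes include the capillary genes Aplnr and Gpihbp1, had Col4a1 at 1208 ± 32.0 CPM, Col4a2 at 793 ± 9.63 CPM and Col15a1 at 251 ± 3.78 CPM. In the Cytl1 cluster (568 nuclei) Col4a1 was at 67.1 ± 29.0 CPM, while Col4a4 was at 189 ± 27.8 CPM, Col4a3 at 101 ± 19.7 CPM and Lamc3 at 57.7 ± 21.9 CPM. The 2 pairs of collagen IV genes were thus high in different endothelial-like clusters.

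The Grid1 cluster (961 nuclei) held the highest Hmcn1 of the 7 at 7841 ± 432 CPM, with Frem1 at 288 ± 9.03 CPM and Ntn4 at 442 ± 109 CPM. The Kcnc2 cluster (425 nuclei) had Hmcn1 at 3577 ± 815 CPM, Hspg2 at 578 ± 119 CPM and Tinagl1 at 150.1 ± 60.3 CPM. Lama3 was highest in the Mannr cluster (235 nuclei), whose leading genes include the arterial gene Gja5, at 376 ± 59.3 CPM, against 5.45 ± 5.95 CPM in the Dlgap2 cluster (254 nuclei). That last cluster had Egflam at 140.1 ± 28.1 CPM, Fras1 at 79.6 ± 14.4 CPM and Hmcn1 at 872 ± 149.6 CPM, the lowest Hmcn1 of the 7.

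**Figure D5:**
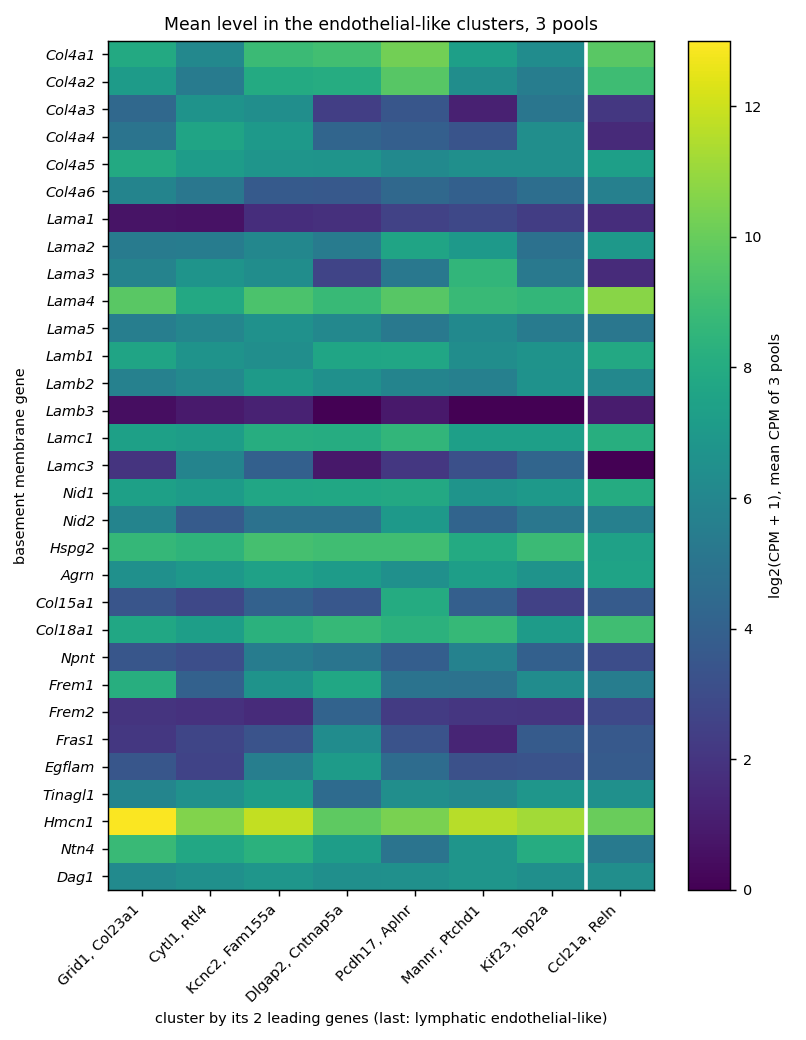
Mean level of the 31 genes (rows) in the 7 endothelial-like clusters and, right of the white line, the lymphatic endothelial-like cluster (columns, named by their leading genes), as log2 of CPM + 1 over 3 pools. Col4a1 and Col4a2 are brightest among the 7 in the Pcdh17 cluster, at 1208 and 793 CPM, and Col4a3, Col4a4 and Lamc3 in the Cytl1 cluster.

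The 2 valve interstitial-like clusters were unlike in several members. In the Rmst cluster (918 nuclei) Egflam was at 127 ± 17.1 CPM, Npnt at 32.9 ± 6.09 CPM and Col18a1 at 191 ± 55.1 CPM. The Abi3bp cluster (539 nuclei) had 12.9 ± 3.20 CPM of Egflam, 4.41 ± 1.48 CPM of Npnt and 99.4 ± 8.76 CPM of Col18a1. Col15a1 went the other way, at 43.0 ± 7.38 CPM in the first and 115 ± 13 CPM in the second. Egflam and Npnt were thus higher by level in the larger cluster.

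In smooth muscle-like nuclei Lama1 was at 44.8 ± 13.1 CPM in the Mylk4 cluster (1125 nuclei) and at 5.41 ± 2.27 CPM in the Clca3a2 cluster (1113 nuclei), where Lama2 was at 188 ± 24.1 and 589 ± 86.0 CPM. The Sost cluster (425 nuclei) had the highest Col4a1 of the 4, at 472 ± 112 CPM. Among fibroblast-like nuclei the Abca8a cluster (748 nuclei) had Frem1 at 272 ± 27.3 CPM and Col15a1 at 380.2 ± 65.3 CPM. The Tmeff2 cluster (271 nuclei), which expressed the adventitial gene Pi16, had 16.8 ± 21.2 CPM of Frem1 and 94.9 ± 40.5 CPM of Col15a1, with more Col4a5 (320.4 ± 46.9 against 99.0 ± 22.4 CPM) and Col4a6 (119.7 ± 32.0 against 20.3 ± 1.11 CPM).

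Cardiomyocyte-like clusters differed in Col4a3, Col4a4 and Fras1. The Ryr3 cluster (204 nuclei), with the leading gene Tbx5, had Col4a3 at 179 ± 11.3 CPM and Col4a4 at 285 ± 71.5 CPM. In the largest cluster (1592 nuclei) they were at 12.8 ± 3.96 and 13.3 ± 0.395 CPM. Fras1 was at 680.2 ± 45.5 CPM in the Lrrc4c cluster (470 nuclei), at 328 ± 58.5 CPM in the Ryr3 cluster and at 100.1 ± 5.96 CPM in the largest.

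The share of nuclei with a UMI was measured after each nucleus was thinned to 1000 UMIs. Macrophage-like nuclei, with a median of 3520.5 UMIs before thinning, are given beside each class as cells that should lack these genes; whether their UMIs are free RNA was not tested. Hmcn1 was found in 65.9%, 72.0% and 67.4% of endothelial-like nuclei (median 4460.5 UMIs) in pools 1, 2 and 3, and in 1.82%, 7.89% and 17.9% of macrophage-like nuclei, the highest in pool 3, whose macrophage-like library stood apart. Lama4 was found in 75.6%, 70.5% and 84.4% of lymphatic endothelial-like nuclei (median 5295 UMIs) and 5.51% ± 1.60 of macrophage-like nuclei. Each was in most nuclei of its class at this depth.

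Lama2 was in 73.8% ± 4.01 of fibroblast-like nuclei (median 3893.5 UMIs) and in 10.0%, 3.95% and 25.0% of macrophage-like nuclei in pools 1, 2 and 3, again the highest in pool 3. Fras1 was in 64.9% ± 2.49 of mesothelial-like nuclei (median 9917 UMIs) and 0.303% ± 0.525 of macrophage-like nuclei, and Ntn4 in 34.5% ± 3.10 of cardiomyocyte-like nuclei (median 5375 UMIs) and 2.37% ± 1.35. Col4a1 was in 55.9% ± 9.37 of pericyte-like nuclei (median 4313 UMIs) and 10.00% ± 3.06 of macrophage-like nuclei. Egflam was in 8.04% ± 0.0819 of valve interstitial-like nuclei (median 3596 UMIs), against 1.63% ± 1.81 of macrophage-like nuclei. Without thinning these shares were 83.2% for Hmcn1, 97.7% for Lama4, 92.6% for Lama2, 93.6% for Fras1, 73.9% for Ntn4, 87.0% for Col4a1 and 19.3% for Egflam in the same classes, and 24.5%, 27.1%, 27.7%, 5.5%, 14.1%, 32.7% and 6.53% in macrophage-like nuclei.

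Receptors of laminin and collagen IV were taken from a list of 16 genes, all tested. Over all tested genes, 21.3% were called higher and 15.5% lower in endothelial-like nuclei, and 22% and 16.9% in smooth muscle-like nuclei. These shares were 7.72% and 3.72% in pericyte-like nuclei (13.7% and 9.28% with the Hgf cluster) and 17.8% and 14.9% in valve interstitial-like nuclei. In endothelial-like nuclei 8 were higher and 6 lower, led by Itgb4, the integrin of hemidesmosomes (log2 fold change 3.56 ± 0.17, edgeR adjusted p = 2.75e-17), and Itga2, a collagen receptor chain (log2 fold change 2.62 ± 0.16, edgeR adjusted p = 1.36e-14), with the collagen receptor Ddr2 lower (log2 fold change -2.28 ± 0.14, edgeR adjusted p = 1.06e-14). In smooth muscle-like nuclei 8 were higher and 2 lower, with Itga8, the nephronectin receptor chain (log2 fold change 3.91 ± 0.14, edgeR adjusted p = 7.76e-20), and Itga7, a laminin receptor of muscle (log2 fold change 2.31 ± 0.18, edgeR adjusted p = 3.22e-12), at the top. Pericyte-like nuclei had 7 higher, among them Itga7 (log2 fold change 3.81) and the collagen IV receptor chain Itga1 (log2 fold change 3.03). With the Hgf cluster counted as pericyte-like, 8 were higher and 1 lower, with Itga7 at 2.64 and Itga1 at 1.90. Valve interstitial-like nuclei had 8 higher and 6 lower, the latter led by Itgb4 (log2 fold change -2.28), the laminin alpha 5 receptor Bcam (log2 fold change -2.20) and Itga3 (log2 fold change -2.20).

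The dystrophin complex, to which dystroglycan belongs, and the enzymes that glycosylate dystroglycan form a list of 19 genes, all tested. Among all tested genes, 33.7% were called higher and 32.1% lower in cardiomyocyte-like, 22% and 16.9% in smooth muscle-like and 21.3% and 15.5% in endothelial-like nuclei. In cardiomyocyte-like nuclei 12 were higher and 2 lower, and the higher ones included Sgca, a membrane protein of the complex (log2 fold change 4.15 ± 0.22, edgeR adjusted p = 7.68e-17), and dystrophin, Dmd (log2 fold change 3.41 ± 0.11, edgeR adjusted p = 1.31e-22). Smooth muscle-like nuclei also had 12 higher and 2 lower, led by Dmd (log2 fold change 2.72). In endothelial-like nuclei 1 was higher and 9 lower. In valve interstitial-like nuclei 5 were higher and 4 lower, with Dmd at a log2 fold change of -2.25. These were 26.3% and 21.1% of the list, against 17.8% and 14.9% of all tested genes.

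Enzymes and chaperones of collagen folding, secretion and cross-linking are a list of 17 genes, all tested, and most of them also serve other collagens. For all tested genes, the shares called higher and lower were 19.5% and 11.5% in fibroblast-like and 17.8% and 14.9% in valve interstitial-like nuclei. They were 33.7% and 32.1% in cardiomyocyte-like and 32.1% and 24.2% in mesothelial-like nuclei. In fibroblast-like nuclei 15 were higher and 1 lower, led by P3h2, a prolyl 3-hydroxylase (log2 fold change 2.32 ± 0.13, edgeR adjusted p = 6.6e-15). Valve interstitial-like nuclei had 8 higher, with P3h2 (log2 fold change 2.24), the lysyl oxidase relative Loxl2 (log2 fold change 1.76) and the lysyl hydroxylase Plod2 (log2 fold change 1.64) at the top. In cardiomyocyte-like nuclei 1 was higher and 15 lower, and in mesothelial-like nuclei 9 were higher and 4 lower, with the collagen chaperone Serpinh1 at a log2 fold change of 2.41 and P3h2 at -3.02.

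Of 20 further basement membrane components, 14 were tested. The shares of all tested genes called higher and lower were 19.5% and 11.5% in fibroblast-like and 32.1% and 24.2% in mesothelial-like nuclei. In valve interstitial-like against fibroblast-like nuclei 10.2% were called lower. Fibroblast-like nuclei had 9 of these higher and 4 lower, led by Smoc2 (log2 fold change 2.98 ± 0.15, edgeR adjusted p = 1.76e-16) and Matn2 (log2 fold change 2.97 ± 0.11, edgeR adjusted p = 2.39e-19), which encode matrix adaptor proteins. Mesothelial-like nuclei had 9 higher and 2 lower, led by the third Frem gene, Frem3 (log2 fold change 5.54 ± 0.27, edgeR adjusted p = 1.12e-17), and Grip1, whose protein carries Fras1 and Frem2 to the cell surface (log2 fold change 4.01 ± 0.13, edgeR adjusted p = 7.25e-22). Against fibroblast-like nuclei, 5 of the 14 were lower in valve interstitial-like nuclei, led by Smoc2 (log2 fold change -3.87 ± 0.24, edgeR adjusted p = 1.7e-13). Lymphatic endothelial-like nuclei had higher netrin 1, Ntn1 (log2 fold change 3.39 ± 0.17, edgeR adjusted p = 1.06e-16). The background shares of all tested genes given for each comparison above hold for these lists too.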

How the data were processed

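Single-nucleus gene expression of 3 pools was taken from 10x Multiome matrices. The deposited matrices hold whole-number UMI counts, and their headers name Cell Ranger 7.1.0; the submitters' processing notes name Cell Ranger 7.0.1 and 7.1.0 and the GRCm39 build. The annotation and the counting of intronic reads are not given in the sources used here. Chromatin data were not analysed here.

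The 3 pools held 10580, 5949 and 4611 deposited nuclei. Nuclei with at least 1000 UMIs and at most 5% mitochondrial UMIs were kept (7056, 3232 and 3731). Scrublet's automatic threshold marked 2 nuclei in each pool, so the highest scores were removed at 0.8% per 1000 deposited nuclei (597, 154 and 138). Clustering (scanpy 1.11.5, leidenalg 0.10.2, 2000 variable genes, 30 components, 15 neighbours, resolution 1) left out the members, the other gene lists, mitochondrial genes and lists of cell cycle and sex genes. The setting with the members kept in the clustering put back the other gene lists with them. A cluster was named from the class with the highest share of its markers enriched at least 2-fold in at least 10% of nuclei, with at least 3 markers and 40% of the list. It stayed unnamed where its leading genes held more markers of another class than of its own. The same held where its UMI total was low and no marker was among its leading genes. A cluster of 599 nuclei with 6 of 8 cardiomyocyte markers, led by haemoglobin genes, was kept out by its leading genes. The use of the share and the 40% minimum were chosen after the clusters were seen: by number of markers, the lymphatic cluster was unnamed and the Hgf cluster was pericyte-like. Of 31 clusters, 3 stayed unnamed (1320 nuclei), and melanocyte-like (71), adipocyte-like (58) and B cell-like (26) nuclei were too few for testing.

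Counts were summed per pool and class and tested with edgeR 4.0.16 in R 4.3.3 (TMM scaling, filterByExpr, quasi-likelihood). Pool was a block because the classes of a pool come from 1 library of the same animals. The members and the gene lists were chosen with earlier results of these data known. Any member may be named, and of each other list the 3 genes with the largest absolute log2 fold change among those called with 1 direction in 3 of 3 pools, from which examples are given. Alternatives were DESeq2 1.42.0, other scaling, filters, clustering and samples. Leaving out the macrophage-like library of pool 3, scaling by library totals only and counting the Hgf cluster as pericyte-like were added after the data were seen. 1 gene of the other lists is not reported here by name.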

Additional observations from a re-analysis of the deposited data

How the results depend on the processing

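Of 229 member calls, 159 kept their direction and their side of the threshold under all alternatives, 66 lost the call under 1 or more and 4 changed sign. Tinagl1 in smooth muscle-like nuclei had a log2 fold change of -0.077 (edgeR adjusted p = 0.756) with the members and the other gene lists kept in the clustering. With the Hgf cluster counted as pericyte-like, Col4a6 (0.82) and Col4a5 (0.30) in pericyte-like nuclei and Col4a5 between muscle and pericyte classes (-0.00036) changed sign, 17 calls were lost, and members called numbered 16 against 10 in pericyte-like nuclei and 4 against 13 between muscle and pericyte classes. The cause was not tested. Fits with no replicate block (the pairing of classes by pool) lost 25 of the 229 calls and left 14 members called in valve interstitial-like, 20 in endothelial-like, 20 in smooth muscle-like, 27 in cardiomyocyte-like, 21 in fibroblast-like, 26 in mesothelial-like, 17 in macrophage-like, 9 in pericyte-like and 14 in lymphatic endothelial-like nuclei, and 14, 10 and 12 in the interstitial and fibroblast, muscle and pericyte, and endothelial and lymphatic comparisons. With a pool left out, members called numbered 14 to 16, 19 to 25, 18 to 20, 27 to 28, 18 to 22, 22 to 26, 12 to 21, 7 to 10, 13 to 18, 13 to 17, 11 to 13 and 12 to 15 in the same order. The thinned shares then ranged from 66.6% to 69.7% for Hmcn1, 71.7% to 75.7% for Lama2, 73.0% to 80.0% for Lama4, 63.7% to 66.2% for Fras1, 33.2% to 36.2% for Ntn4, 50.5% to 58.8% for Col4a1 and 7.99% to 8.07% for Egflam. With classes of at least 50 nuclei in each pool only, 25 members were called in valve interstitial-like nuclei against 16, and no pericyte or lymphatic comparison could be made. Without the lymphatic class its own comparisons have no value. Without thinning the shares were 83.2% for Hmcn1, 92.6% for Lama2, 97.7% for Lama4, 93.6% for Fras1, 73.9% for Ntn4, 87.0% for Col4a1 and 19.3% for Egflam, since more UMIs were counted per nucleus. With doublets kept they were 61.8% for Fras1 and 6.29% for Egflam. Scaling by library totals moved the median of all genes by -0.40 in cardiomyocyte-like, -0.22 in mesothelial-like, 0.20 in macrophage-like, 0.15 in lymphatic and 0.11 in pericyte-like nuclei and by -0.15 between muscle and pericyte classes. Higher calls as a share of all calls then went from 51.2% to 30.9% in cardiomyocyte-like, 57.0% to 44.4% in mesothelial-like, 58.7% to 79.1% in macrophage-like, 67.5% to 80.6% in pericyte-like and 54.0% to 68.4% in lymphatic nuclei. DESeq2 gave 77.7% and 64.3% in the last 2. Between muscle and pericyte classes the share went from 50.9% to 39.9% with RLE, 34.2% with DESeq2 and 34.8% with totals, and between endothelial and lymphatic classes from 56.8% to 46.1% with RLE and 41.7% with DESeq2. Lamb3, Lamc3 and Lama1 have under 500 UMIs each over all nuclei, which limits their folds.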
